A study of Rattus norvegicus with 28 samples.

Results

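The comparison described here sets the left ventricles of untreated hypertensive rats against those of normal rats. The hypertensive animals were dTGR, the double transgenic rat line SD-Tg(hAGT)L1623xTg(hREN)L10J, which carries the human angiotensinogen and human renin genes and is labelled as a model of HFpEF, heart failure with preserved ejection fraction, induced by hypertension. Members were chosen by their labels: all 8 arrays of dTGR given vehicle and all 8 arrays of Sprague Dawley (SD) rats with no treatment, together 16 of the 28 arrays of the series. The other 12 arrays came from dTGR given 3 mg/kg/day of a stimulator of soluble guanylate cyclase. They entered only the estimate of the spread and are not described.

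All animals were male, were assigned to groups at 3.5 weeks of age and were killed at 7 weeks. The dTGR received Transcutol, Cremophor-EL and water by daily gavage from 4 weeks of age, whereas the SD rats were labelled as not treated. The transgenes, the gavage and the vehicle therefore cannot be told apart here. The sources used here do not name the promoters that drive the human genes. The rat probes of the array were designed for rat transcripts, and the human transgenes were not analysed here. Each array was hybridised with labelled RNA made from 250 ng of total RNA of left ventricle, and all measurements are of bulk tissue, in which fewer cells of a type and less RNA per cell cannot be told apart.

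Angiotensinogen is the precursor that renin cuts to angiotensin I, which angiotensin-converting enzyme turns into the vasoconstrictor angiotensin II. Because rat renin cleaves human angiotensinogen poorly and human renin acts poorly on the rat protein, the line needs both human genes to raise angiotensin II. In the pressure-loaded left ventricle, cardiomyocytes enlarge, transcription factors of the early response are induced, fetal contractile genes return, fuel use moves away from fatty acids, and immune and stromal cells take part in remodelling of the wall.

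Array medians lay between 99.5 and 107 on the intensity scale. Of 36685 probes, 14824 carried a single gene symbol, 829 several and 21032 none in the platform annotation. After a filter on the mean level (log2 5.65, an intensity of 50.2) and with the brightest probe kept for each symbol, 11493 genes were tested. A list of ventricular cardiomyocyte markers was compared between the groups, which does not test the tissue label. Of the list's 17 genes 13 were measured. The cardiac troponin T gene Tnnt2 measured 16.33 to 16.42 in SD and 16.34 to 16.45 in vehicle dTGR. The median difference of the 13 markers was -0.02, with 2 called higher and 4 lower, and no called marker moved by 1.5-fold. Replicates 6 and 7 of the vehicle arrays lay closer to SD than the others. Over the genes called higher, their median shifts from the SD mean were 0.34 and 0.29, replicate 3 followed with 0.41, and the remaining 5 lay between 0.53 and 0.65. List counts are given below with and without replicates 6 and 7 where either direction moved by 1.5 times or more. These arrays were singled out by their closeness to SD. Leaving them out therefore tends to enlarge differences and is no independent support for them.

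Values below are log2 intensities, given as the lowest to the highest of the 8 arrays with the median. Differences are vehicle dTGR minus SD on the log2 scale, ± the standard error, with the Benjamini-Hochberg adjusted p of a limma fit over all 11493 genes. A gene was called when this p was under 0.05. Levels of different genes are not compared, since each comes from its own probe.

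The ventricles of the 2 groups differed in 2731 genes, 23.8% of those tested. Of these, 1385 (12.1%) were higher in vehicle dTGR and 1346 (11.7%) were lower. Most differences were small. The median size of a called difference was 0.48 on the log2 scale, and 1705 called genes moved by less than 1.5-fold. At 1.5-fold or more 574 genes were higher and 452 lower, at 2-fold or more 204 and 113, and at 4-fold or more 31 and 9. Without vehicle replicates 6 and 7, 1510 genes were higher and 1552 lower, of which 730 and 622 moved by 1.5-fold or more. The 8 arrays of one group lay wholly outside the range of the other for 468 genes (4.07%), 225 higher and 243 lower. Calls were rarer among dim genes. With genes cut into 4 equal groups by level, 3.20% of the dimmest group were called higher and 2.02% lower, against 17.9% and 19.5% of the brightest.

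Genes were described in 95 lists of families and pathways, which together held 3094 of the tested genes. For each list the number of listed genes, of members measured above the filter and of members called in each direction is given, to be read against the 12.1% and 11.7% of all genes.

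**Figure D1:**
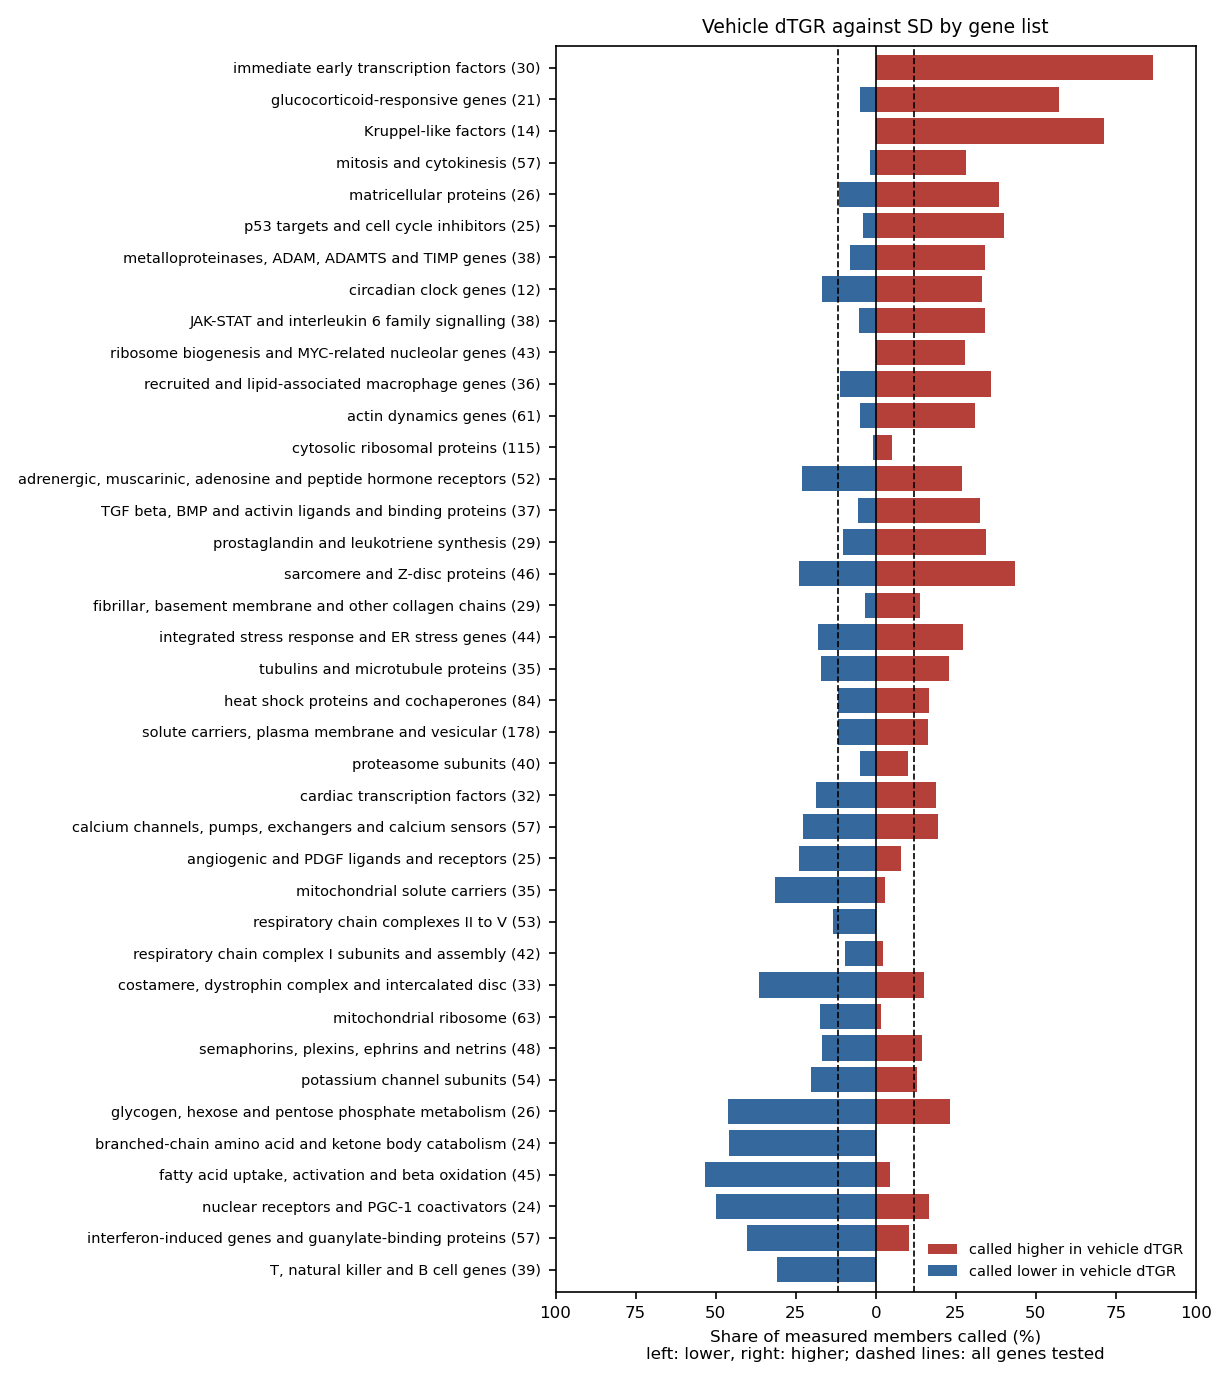
Share of the measured members of 39 gene lists that were called higher (red, to the right) or lower (blue, to the left) in vehicle dTGR than in SD, with the number of measured members in brackets and the lists ordered by median difference. Dashed lines mark the 12.1% and 11.7% of all tested genes. The list labelled immediate early transcription factors, which also holds other early response genes, stands at the top, with 26 of 30 called higher. T, natural killer and B cell genes, with 12 of 39 called lower and none higher, stand at the bottom.

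The clearest family difference was in a list of immediate early transcription factors and other early response genes, such as Zfp36. Cells switch these genes on within minutes of a stimulus without new protein synthesis. Of 35 listed genes 30 were measured, 26 were higher and none was lower, with a median difference of 1.03 against 0.00 over all genes. Egr1, a zinc finger factor of the growth response, measured 9.84 to 10.70 in SD (median 10.08) and 10.75 to 15.20 in vehicle dTGR (median 11.73), a difference of 1.87 ± 0.35 (adjusted p = 0.000178). Its groups did not overlap, and replicate 1 of the vehicle group, at 15.20, stood above the other 7. Atf3, a stress-induced member of the ATF/CREB family, measured 7.99 to 8.35 in SD (median 8.27) and 9.24 to 14.64 in vehicle dTGR (median 10.20), a difference of 2.30 ± 0.42 (adjusted p = 0.00012). For Atf3 every vehicle array was above every SD array, while the vehicle arrays themselves were spread 13.4 times as widely as the SD arrays by standard deviation.

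Junb, a subunit of AP-1, measured 9.62 to 10.54 in SD (median 10.21) and 10.54 to 13.77 in vehicle dTGR (median 12.32), a difference of 1.80 ± 0.28 (adjusted p = 1.48e-05). Myc, the growth-promoting factor, measured 7.13 to 8.54 in SD (median 7.95) and 8.50 to 12.23 in vehicle dTGR (median 10.43), a difference of 2.23 ± 0.32 (adjusted p = 3.92e-06). In Myc the lowest vehicle array fell just within the SD range, and the other 7 were above it. Nr4a1, an orphan nuclear receptor of the early response, differed by 1.68 ± 0.42 (adjusted p = 0.00303), the AP-1 subunit Jun by 1.05 ± 0.18 (adjusted p = 6.22e-05), and Zfp36, which speeds the decay of cytokine mRNAs, by 1.53 ± 0.30 (adjusted p = 0.000249). The 4 measured members that were not called were Srf, Ier5l, Fosb and Arc. Srf, the serum response factor that drives many of these genes, differed by -0.01. Fosb, a further AP-1 subunit, differed by 0.58 ± 0.40 (adjusted p = 0.34), with 1 vehicle array at 10.89 and a vehicle median of 6.69 against 6.40 in SD.

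The median of the list in each array, taken as the difference from the SD mean, ran from 0.39 to 2.58 in the 8 vehicle arrays and from -0.14 to 0.12 in the SD arrays. All 8 vehicle arrays were above all SD arrays, with replicate 1 at 2.58 and replicates 7, 6 and 3 at 0.39, 0.47 and 0.49. Members of this list varied more between vehicle arrays than between SD arrays, with a median ratio of standard deviations of 3.11 against 1.15 over all genes. Kruppel-like factors, zinc finger regulators of vascular and metabolic genes, moved the same way: of 14 measured of 15, 10 were higher and none was lower, with a median of 0.57. Klf4 measured 10.10 to 10.95 in SD (median 10.54) and 11.12 to 12.40 in vehicle dTGR (median 11.66), a difference of 1.13 ± 0.13 (adjusted p = 2.12e-07), and its groups did not overlap. Klf2, a flow-responsive factor of endothelium, differed by 1.15 ± 0.19 (adjusted p = 2.56e-05). Klf15, the factor that ties glucocorticoids to amino acid and lipid use in heart, differed by 0.05 ± 0.19 (adjusted p = 0.894). Klf2, Klf4, Klf6 and Klf10 are in both lists.

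**Figure D2:**
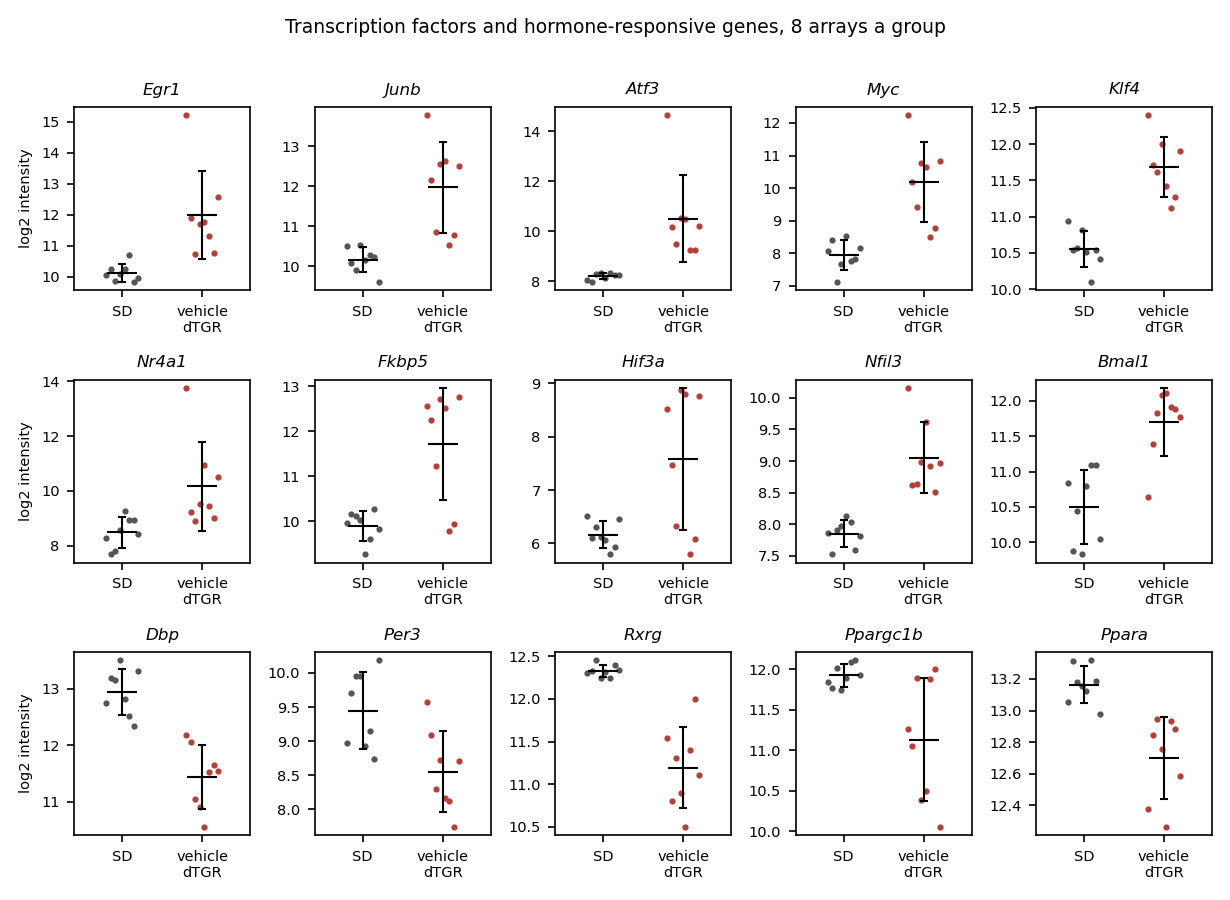
Log2 intensity of 15 transcription factors and hormone-responsive genes in each array, SD in grey and vehicle dTGR in red, with the mean and standard deviation of 8 arrays. In Fkbp5 and Hif3a 2 or more of the vehicle arrays lie within the SD range, while in Klf4, Nfil3, Dbp and Rxrg the groups do not overlap.

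Genes that respond to glucocorticoids were higher in most vehicle arrays but not in replicates 6 and 7. Of 34 listed genes 21 were measured, 12 were higher and 1 was lower, with a median of 0.97. Fkbp5, a cochaperone of the glucocorticoid receptor and one of its best known targets, measured 9.27 to 10.28 in SD (median 10.00) and 9.79 to 12.76 in vehicle dTGR (median 12.38), a difference of 1.81 ± 0.32 (adjusted p = 8.64e-05). Hif3a, a hypoxia-inducible factor subunit, measured 5.80 to 6.52 in SD (median 6.11) and 5.81 to 8.89 in vehicle dTGR (median 8.00), a difference of 1.42 ± 0.38 (adjusted p = 0.00515). Both genes were split within the vehicle group, with some arrays at the SD level and the rest well above it. By array, the median of the list was -0.25 in replicate 6 and -0.11 in replicate 7, 0.80 in replicate 3 and 1.09 to 1.95 in the other 5, against -0.21 to 0.20 in the SD arrays. Without replicates 6 and 7 the counts were 16 higher and 1 lower, with a median of 1.55. The transcription factor Cebpb, induced by glucocorticoids and cytokines, differed by 1.43 ± 0.23 (adjusted p = 2.42e-05), and Ddit4, an inhibitor of mTORC1, by 1.33 ± 0.33 (adjusted p = 0.00293). The clock gene Per1 and the zinc finger gene Zbtb16 were not called, at 0.81 ± 0.40 and 1.01 ± 0.39 (adjusted p = 0.142 and 0.0566). Without replicates 6 and 7 their differences were 1.55 and 1.75. The receptor gene itself, Nr3c1, was the lower member, at -0.36 ± 0.07 (adjusted p = 0.00031).

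Nuclear receptors and the PGC-1 coactivators, which set the capacity for fatty acid oxidation and mitochondrial biogenesis, were mostly lower. Of 24 measured of 29, 12 were lower and 4 higher, with a median of -0.26, and in all 8 vehicle arrays the median of the list (-0.30 to -0.07) was below that of all SD arrays (-0.06 to 0.06). Rxrg, a retinoid X receptor that pairs with other nuclear receptors, measured 12.24 to 12.45 in SD (median 12.32) and 10.50 to 11.996 in vehicle dTGR (median 11.21), a difference of -1.13 ± 0.13 (adjusted p = 1.53e-07). Ppara, the fatty acid sensing receptor, measured 12.98 to 13.32 in SD (median 13.17) and 12.27 to 12.95 in vehicle dTGR (median 12.80), a difference of -0.46 ± 0.08 (adjusted p = 3.38e-05). The groups of Rxrg, Ppara and Rxra (-0.59 ± 0.08) did not overlap. Ppargc1b was lower, at -0.80 ± 0.20 (adjusted p = 0.00262), although 3 of its vehicle arrays lay between 11.88 and 12.01, within the SD range of 11.75 to 12.11. Ppargc1a and the estrogen-related receptor Esrra were lower by smaller amounts, -0.33 ± 0.11 and -0.40 ± 0.11. The higher members were the early response receptors Nr4a1 and Nr4a2, the oxysterol receptor Nr1h3 and the coactivator Pprc1. The calls of Nr1h3, Pprc1 and Ppargc1a were lost when certain single arrays were left out, for Ppargc1a vehicle replicate 5 and for Pprc1 vehicle replicate 2 or 8.

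Core clock genes moved in opposite directions. Of 12 measured genes 4 were higher and 2 lower. Bmal1, the activator of the clock loop, measured 9.83 to 11.09 in SD (median 10.62) and 10.64 to 12.11 in vehicle dTGR (median 11.86), a difference of 1.20 ± 0.19 (adjusted p = 1.85e-05). Dbp, an output factor that Bmal1 and Clock activate, measured 12.34 to 13.51 in SD (median 12.99) and 10.56 to 12.19 in vehicle dTGR (median 11.53), a difference of -1.52 ± 0.22 (adjusted p = 4.2e-06). Nfil3, which represses the sites that Dbp activates, was higher by 1.20 ± 0.18 (adjusted p = 1.01e-05), without overlap, and Per3 was lower, at -0.89 ± 0.22 (adjusted p = 0.00279). The sources used here do not give the hour of tissue collection, and its part in these differences was not tested. The list of cardiac transcription factors was split, with 6 of 32 measured members higher and 6 lower (7 higher and 9 lower without replicates 6 and 7). Higher members included Foxm1, Sox17, Runx2 and Hopx, at 0.69 ± 0.16, 0.66 ± 0.12, 0.65 ± 0.18 and 0.57 ± 0.12. Of these, Foxm1 is a factor of mitotic genes. Gata5 was lower, at -0.92 ± 0.13 (adjusted p = 1.77e-06) and the muscle histone methyltransferase Smyd1 by -0.55 ± 0.10 (adjusted p = 0.000107), both without overlap, whereas Gata4 differed by -0.23 ± 0.10 and was not called (adjusted p = 0.0775). Without replicates 6 and 7, left out for lying nearest to SD, the Gata4 difference was -0.37.

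Among sarcomere and Z-disc proteins a large share differed, in both directions. Of 69 listed genes 46 were measured, 20 were higher and 11 lower. The groups of 18 of the 46 did not overlap, 12 higher and 6 lower, against 4.07% of all genes without overlap. Myot, which encodes the Z-disc protein myotilin of skeletal muscle, measured 7.41 to 8.04 in SD (median 7.68) and 8.86 to 11.95 in vehicle dTGR (median 10.61), a difference of 2.85 ± 0.29 (adjusted p = 1.49e-08). Mybpc2, the fast skeletal form of myosin-binding protein C, measured 6.08 to 8.03 in SD (median 7.11) and 8.81 to 10.40 in vehicle dTGR (median 9.81), a difference of 2.72 ± 0.21 (adjusted p = 1.06e-10). In both genes every vehicle array was above every SD array. Among further genes of the Z-disc and its links to actin, Flnc (filamin C), Xirp2 and Csrp3 (muscle LIM protein), were higher by 1.10 ± 0.16, 1.05 ± 0.14 and 0.78 ± 0.06, again without overlap. In a list of 17 skeletal muscle markers, 7 were measured: Mybpc2 and the calsequestrin gene Casq1 were higher, the muscle creatine kinase gene Ckm was lower, and Myod1 and Myog, which define the lineage, were not called. Their part in the sarcomere differences was not tested.

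Lower members included genes of the M-band and of thin filament ends. Myom3, a myomesin of the M-band, measured 6.95 to 8.23 in SD (median 7.26) and 6.11 to 6.63 in vehicle dTGR (median 6.35), a difference of -1.05 ± 0.18 (adjusted p = 5.12e-05). Tmod4, a tropomodulin that caps thin filaments, measured 11.90 to 12.63 in SD (median 12.31) and 10.98 to 11.88 in vehicle dTGR (median 11.41), a difference of -0.88 ± 0.14 (adjusted p = 1.82e-05). The cardiac myosin light chain kinase Mylk3 and the myosin heavy chain Myh7b were lower, at -0.50 ± 0.08 and -0.67 ± 0.18, and none of these groups overlapped. Genes of costameres, the dystrophin complex and the intercalated disc, which tie the sarcomere to the membrane and to neighbouring cells, were lower more often than higher, with 12 lower and 5 higher of 33 measured. The connexin gene Gja3 was lower, at -0.84 ± 0.14 (adjusted p = 2.36e-05) and the alpha catenin Ctnna3 by -0.52 ± 0.09 (adjusted p = 3.75e-05), whereas Parva, a partner of integrin-linked kinase, was higher by 0.41 ± 0.05 (adjusted p = 2.12e-07).

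Genes of actin dynamics were higher in 19 and lower in 3 of 61 measured members (19 higher and 6 lower without replicates 6 and 7). Capg, a capping protein of actin ends, measured 8.93 to 9.63 in SD (median 9.43) and 10.00 to 11.12 in vehicle dTGR (median 10.53), a difference of 1.16 ± 0.12 (adjusted p = 2.79e-08), with no overlap. Microtubule genes were divided, with 8 higher and 6 lower of 35, and without replicates 6 and 7 the balance turned, to 5 higher and 7 lower. The microtubule-associated protein gene Map1b was higher by 1.19 ± 0.12 (adjusted p = 2.28e-08) and the tubulin ligase Ttll9 by 1.49 ± 0.21 (adjusted p = 3.7e-06), both without overlap, whereas the tubulin genes Tubb6 and Tuba8 moved apart, at 0.83 ± 0.20 and -0.70 ± 0.14.

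Receptors for catecholamines, peptides and other hormones differed at 26 of 52 measured members, 14 higher and 12 lower. Among the alpha-1 adrenergic receptors, which couple to Gq, Adra1a measured 11.80 to 12.31 in SD (median 12.03) and 10.71 to 11.68 in vehicle dTGR (median 11.03), a difference of -0.90 ± 0.10 (adjusted p = 3.87e-08). Adra1d measured 8.09 to 9.39 in SD (median 9.02) and 6.08 to 8.80 in vehicle dTGR (median 6.77), a difference of -1.73 ± 0.31 (adjusted p = 0.000101). The groups of Adra1a did not overlap and those of Adra1d did. The beta-1 receptor Adrb1 differed by -0.28 ± 0.13 and was not called (adjusted p = 0.119), while the cardiac adenylyl cyclase Adcy5, which it activates, was lower, at -0.62 ± 0.07 (adjusted p = 1.62e-07). Higher receptors included F2rl1, which proteases activate (7.73 to 9.34 in SD and 9.74 to 10.65 in vehicle dTGR, adjusted p = 3.1e-08, no overlap), the serotonin receptor Htr2a (1.47 ± 0.19, adjusted p = 5.73e-07) and the sphingosine 1-phosphate receptor S1pr1 (0.82 ± 0.13, adjusted p = 1.24e-05). The purinergic receptor P2ry1 was lower, at -0.83 ± 0.11 (adjusted p = 1.4e-06), without overlap.

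Apelin, a peptide of endothelium and cardiomyocytes that relaxes vessels, was lower: Apln measured 10.83 to 11.67 in SD (median 11.24) and 9.31 to 11.40 in vehicle dTGR (median 9.94), a difference of -1.03 ± 0.23 (adjusted p = 0.000841). Angpt1, the ligand that keeps vessels stable through the Tie2 receptor, measured 10.71 to 12.10 in SD (median 11.26) and 8.36 to 10.33 in vehicle dTGR (median 9.49), a difference of -1.85 ± 0.22 (adjusted p = 2.36e-07). Its groups did not overlap, and it was the largest difference in a list of angiogenic and PDGF ligands and receptors of which 2 of 25 measured members were higher and 6 lower. Pdgfa and the coreceptor Nrp1 were lower, at -0.66 ± 0.10 and -0.75 ± 0.17. Cytokine signalling through JAK and STAT was higher in 13 and lower in 2 of 38 measured genes (14 higher and 1 lower without replicates 6 and 7). Stat3 measured 12.91 to 13.19 in SD (median 13.12) and 13.30 to 14.70 in vehicle dTGR (median 13.95), a difference of 0.82 ± 0.12 (adjusted p = 3.74e-06), with no overlap. The ligands Il6 and Osm were higher by 1.13 ± 0.32 and 1.13 ± 0.22 (adjusted p = 0.00963 and 0.000232), and the kinase Jak2 by 0.79 ± 0.17 (adjusted p = 0.000605).

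Ligands and binding proteins of the TGF beta superfamily were higher in 12 and lower in 2 of 37 measured genes (11 higher and 1 lower without replicates 6 and 7). Gdf15, a stress-induced ligand, measured 4.97 to 7.20 in SD (median 6.92) and 7.36 to 9.63 in vehicle dTGR (median 8.04), a difference of 1.69 ± 0.34 (adjusted p = 0.000294). Fstl3, which binds activins and myostatin, measured 9.69 to 10.48 in SD (median 10.12) and 10.54 to 12.32 in vehicle dTGR (median 11.54), a difference of 1.46 ± 0.18 (adjusted p = 4.64e-07). Neither gene had overlapping groups. The activin subunits Inhba and Inhbb were higher by 0.93 ± 0.22 and 1.04 ± 0.21, and Ltbp2, which sits beside latent TGF beta in microfibrils, by 1.45 ± 0.36. Of 33 measured genes of the TNF superfamily, its receptors and their adaptors, 8 were higher and 1, the ligand Tnfsf10 (-0.63 ± 0.16), was lower (8 higher and 3 lower without replicates 6 and 7). Tnfrsf12a, the receptor for TWEAK, measured 9.53 to 10.14 in SD (median 9.96) and 11.10 to 13.24 in vehicle dTGR (median 11.73), a difference of 1.91 ± 0.19 (adjusted p = 1.31e-08), with no overlap. Tnfrsf11b, which encodes the decoy receptor osteoprotegerin, was higher by 1.49 ± 0.24 (adjusted p = 1.67e-05).

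Fibroblast growth factors moved singly. Fgf16, a factor of the myocardium, measured 11.98 to 12.31 in SD (median 12.25) and 9.14 to 12.06 in vehicle dTGR (median 10.85), a difference of -1.32 ± 0.24 (adjusted p = 0.000102), and 2 vehicle arrays lay within the SD range. Fgf23, the phosphate-regulating hormone of bone, had an SD mean below the filter level of log2 5.65. With SD arrays below that level set to it, Fgf23 was at least 3.16-fold higher in vehicle dTGR. The adjusted p of the unaltered values was 7.94e-05. Other folds given as at least were counted the same way, from the group with the mean below the level. The insulin receptor substrates differed in opposite directions, Irs2 higher by 1.06 ± 0.29 and Irs1 lower, at -0.51 ± 0.11 (adjusted p = 0.00714 and 0.000949), and the carrier Igfbp3 was lower, at -1.02 ± 0.20 (adjusted p = 0.00024). Of 48 measured guidance molecules 7 were higher and 8 lower, against 12.1% and 11.7% of all genes. Among them Sema5a differed by 0.99 ± 0.12 and the semaphorin Sema4d by -0.80 ± 0.09, both without overlap. Feedback inhibitors of the MAP kinases were higher in 8 and lower in 2 of 22 (10 higher and 3 lower without replicates 6 and 7), and the phosphatase Dusp26 measured 6.34 to 7.69 in SD (median 7.00) and 7.97 to 9.001 in vehicle dTGR (median 8.34), a difference of 1.43 ± 0.18 (adjusted p = 6.43e-07).

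Ion channel genes differed more often downward than upward for potassium channels (11 lower and 7 higher of 54 measured, 77 listed) and about evenly for calcium channels, pumps and sensors (13 lower and 11 higher of 57). Kcnj3, a subunit of the acetylcholine-activated potassium channel that is richest in atria, measured 12.48 to 13.23 in SD (median 12.93) and 11.71 to 12.47 in vehicle dTGR (median 11.91), a difference of -0.92 ± 0.11 (adjusted p = 2.2e-07). Kcnj2, the inward rectifier that holds the resting potential, measured 11.003 to 11.68 in SD (median 11.30) and 10.45 to 10.80 in vehicle dTGR (median 10.68), a difference of -0.66 ± 0.08 (adjusted p = 6.21e-07). With the repolarising channels Kcnd3 (-0.76 ± 0.13) and Kcnh2 (-0.64 ± 0.12), these 4 genes were lower without overlap of the groups. Kcnj3 is also 1 of 8 measured atrial markers, of which 4 were lower and 1 higher, and the part of atrial tissue in its difference was not tested. Among calcium channel subunits Cacng6 measured 10.44 to 11.09 in SD (median 10.72) and 8.35 to 10.25 in vehicle dTGR (median 9.002), a difference of -1.63 ± 0.18 (adjusted p = 1.05e-07). Cacng4 and Cacna2d2, further auxiliary subunits, were lower, at -1.15 ± 0.20 and -0.88 ± 0.13, and Jph2, which holds the dyad together, by -0.61 ± 0.11.

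Some channels that respond to stretch, osmotic change or store depletion were higher. Tmem63c, a member of a family of osmosensitive channels, measured 4.95 to 7.17 in SD (median 6.79) and 6.88 to 10.91 in vehicle dTGR (median 9.59), a difference of 2.75 ± 0.43 (adjusted p = 1.49e-05), or 3.48 without replicates 6 and 7. Trpv4, a mechanosensitive cation channel, measured 6.13 to 7.89 in SD (median 6.41) and 7.31 to 9.17 in vehicle dTGR (median 8.61), a difference of 1.64 ± 0.29 (adjusted p = 7.25e-05). Orai3, a subunit of the store-operated calcium channel, was higher by 0.72 ± 0.11 and Piezo1, a stretch-gated channel, by 0.32 ± 0.09, whereas Ano5, an anoctamin of muscle, was lower, at -1.56 ± 0.25. Across the list of chloride, volume-regulated and mechanosensitive channels 8 of 24 measured members were higher and 5 lower.

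Solute carriers of the plasma membrane and vesicles were higher in 29 and lower in 21 of 178 measured members, against 12.1% and 11.7% of all genes. Amino acid carriers were among the largest differences. Slc1a3, a glutamate transporter, measured 6.71 to 8.51 in SD (median 7.90) and 8.77 to 10.29 in vehicle dTGR (median 9.50), a difference of 1.71 ± 0.20 (adjusted p = 2.14e-07). Slc7a5, the light chain of the large neutral amino acid exchanger, measured 9.12 to 9.41 in SD (median 9.26) and 9.12 to 12.99 in vehicle dTGR (median 11.36), a difference of 1.71 ± 0.31 (adjusted p = 0.000107). Slc3a2, the heavy chain of that exchanger, measured 12.08 to 12.47 in SD (median 12.30) and 12.48 to 14.47 in vehicle dTGR (median 13.57), a difference of 1.20 ± 0.20 (adjusted p = 2.8e-05). Slc7a5 had the widest relative spread among genes above the median level, with a vehicle standard deviation 13.9 times that of SD, and its lowest vehicle array equalled the SD arrays. Slc2a4, the insulin-regulated glucose transporter, was lower, at -0.42 ± 0.09 (adjusted p = 0.000541).

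Metabolic genes of fuel oxidation were lower as groups. Of 53 listed genes of fatty acid uptake, activation and beta oxidation, 45 were measured, 24 were lower and 2 higher, with a median of -0.24 (25 lower and 3 higher without replicates 6 and 7). The differences were small but held across arrays: the median of the list was below all SD arrays (-0.07 to 0.08) in all 8 vehicle arrays (-0.38 to -0.09). Acaa1a, a peroxisomal thiolase, measured 9.68 to 10.26 in SD (median 10.08) and 9.10 to 9.59 in vehicle dTGR (median 9.31), a difference of -0.71 ± 0.10 (adjusted p = 2.15e-06). Eci1, which moves the double bonds of unsaturated fatty acids, measured 12.61 to 13.14 in SD (median 13.002) and 12.12 to 12.65 in vehicle dTGR (median 12.40), a difference of -0.57 ± 0.08 (adjusted p = 2.76e-06). The groups of Acaa1a were apart, and those of Eci1 met at their edges. The carnitine transporter Slc22a5 and the acetate-activating enzyme Acss1 were lower, at -0.46 each, without overlap. Cpt1b, the muscle enzyme that commits fatty acids to mitochondria, differed by -0.07 ± 0.04 and was not called (adjusted p = 0.278), and Cd36, the fatty acid translocase, by 0.19 ± 0.07 (adjusted p = 0.0505). Without replicates 6 and 7, left out for lying nearest to SD, the Cd36 difference was 0.29. Fabp4, a fatty acid carrier of endothelium and fat, was 1 of the 2 higher members, at 0.53 ± 0.12.

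Breakdown of branched-chain amino acids showed the same pattern with no exception among the called genes. Of 24 measured genes of that pathway and of ketone bodies, 11 were lower and none was higher, and 7 of the 11 had groups that did not overlap. Over all tested genes 466 of the 2731 called had no overlap. Bckdha, a subunit of the dehydrogenase that commits the branched-chain keto acids, measured 11.23 to 11.93 in SD (median 11.48) and 10.34 to 10.90 in vehicle dTGR (median 10.74), a difference of -0.79 ± 0.09 (adjusted p = 2.32e-07). Bcat2, the mitochondrial transaminase before it, measured 12.05 to 12.55 in SD (median 12.35) and 11.44 to 11.95 in vehicle dTGR (median 11.80), a difference of -0.58 ± 0.08 (adjusted p = 1.45e-06). Dbt, the core subunit of the dehydrogenase, measured 13.89 to 14.24 in SD (median 14.18) and 13.47 to 13.85 in vehicle dTGR (median 13.68), a difference of -0.51 ± 0.05 (adjusted p = 3.41e-08). All 3 were lower in every vehicle array, replicates 6 and 7 included, and without those 2 arrays their differences were -0.73, -0.54 and -0.50. The kinase that inhibits the dehydrogenase, Bckdk, was also lower, by -0.30 ± 0.06 (adjusted p = 0.000443), and Oxct1, which activates ketone bodies, was not called, at 0.05 ± 0.05 (adjusted p = 0.446).

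**Figure D3:**
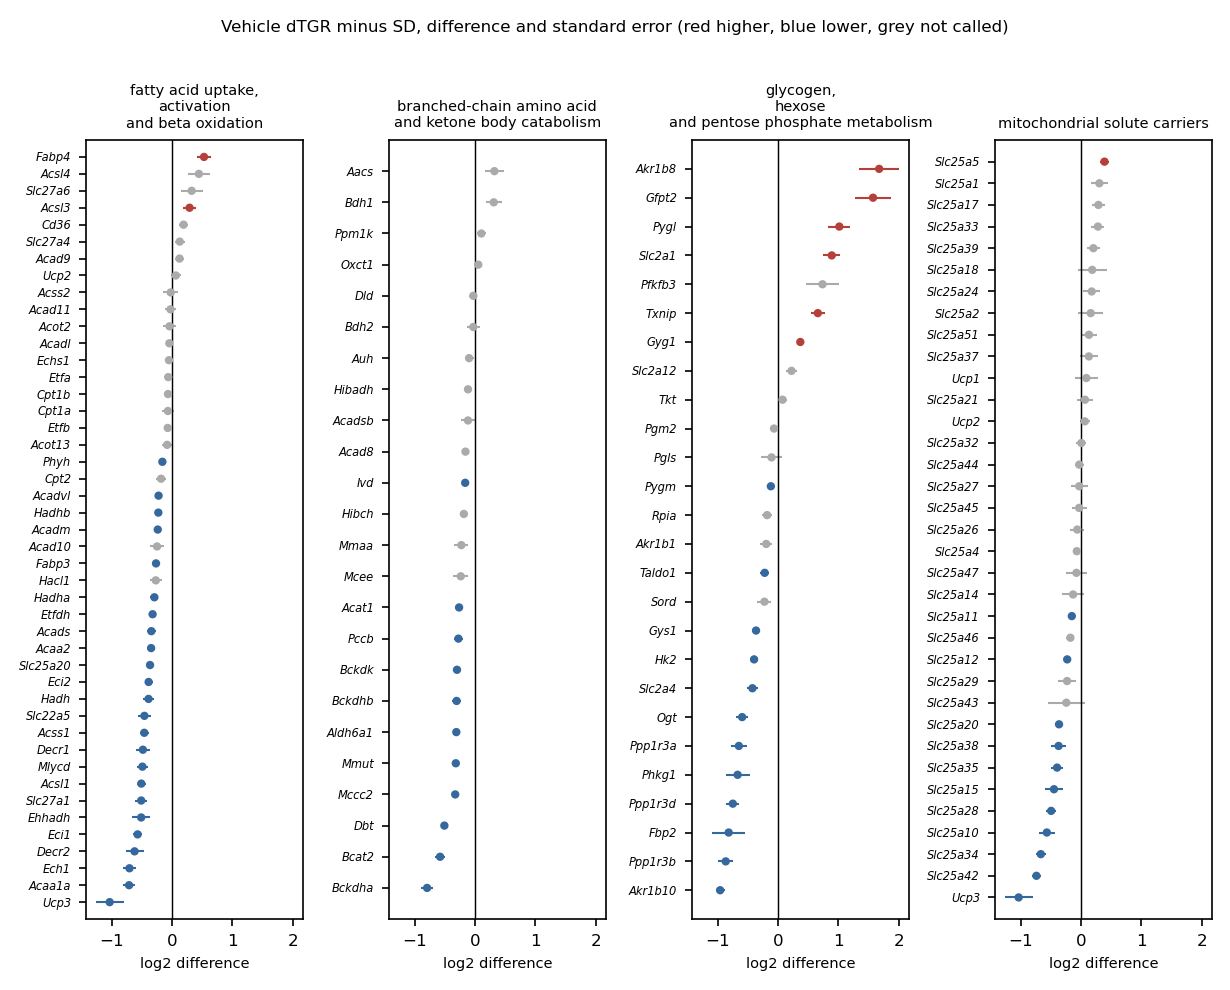
Difference between vehicle dTGR and SD (log2, horizontal axis) with its standard error for each measured gene of fatty acid oxidation, branched-chain amino acid and ketone body catabolism, hexose metabolism and the mitochondrial solute carriers. Called genes are red (higher) or blue (lower) and others grey. In the branched-chain panel all 11 called genes lie left of 0, and in the fatty acid panel 24 of 26.

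Glycogen and hexose metabolism held lower and higher members, 12 and 6 of 26 measured. The subunits that target protein phosphatase 1 to glycogen were lower, with Ppp1r3b at 8.73 to 9.12 in SD (median 8.88) and 7.61 to 8.47 in vehicle dTGR (median 8.06), a difference of -0.86 ± 0.12 (adjusted p = 2.84e-06). Ppp1r3d and Ppp1r3a followed at -0.75 ± 0.11 and -0.65 ± 0.14, and muscle glycogen synthase Gys1 at -0.36 ± 0.07. Against these, the phosphorylase Pygl was higher by 1.02 ± 0.18, and Gfpt2, which starts the hexosamine pathway, measured 9.42 to 10.26 in SD (median 9.95) and 9.75 to 12.74 in vehicle dTGR (median 11.88), a difference of 1.57 ± 0.30 (adjusted p = 0.000189). The related aldo-keto reductase genes Akr1b10 and Akr1b8 moved apart, at -0.96 ± 0.07 and 1.68 ± 0.33. Their transcripts are alike, and probes may not tell such copies fully apart.

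Among mitochondrial solute carriers 11 of 35 measured were lower and 1 higher (11 and 2 without replicates 6 and 7), with the coenzyme A carrier Slc25a42 at -0.74 ± 0.08 (adjusted p = 3e-08) and no overlap. The single higher carrier was the adenine nucleotide exchanger Slc25a5, at 0.39 ± 0.07. Subunits of the respiratory chain were called, in either direction, less often than the 23.8% of all genes. For complex I 4 of 42 were lower and 1 higher, for complexes II to V 7 of 53 were lower and none higher, and the medians of both lists were -0.07. For mitochondrial ribosomal proteins 11 of 63 were lower and 1 higher, and without replicates 6 and 7 the counts were 18 and 1. Polrmt, the mitochondrial RNA polymerase, was lower, at -0.66 ± 0.09 (adjusted p = 1.55e-06), and Bnip3, a receptor for removal of mitochondria, was higher by 0.77 ± 0.12 (adjusted p = 1.67e-05), both without overlap.

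Enzymes of creatine and nitrogen metabolism included large single differences. Gamt, which makes creatine from guanidinoacetate, measured 9.94 to 10.79 in SD (median 10.38) and 8.36 to 9.71 in vehicle dTGR (median 9.09), a difference of -1.32 ± 0.14 (adjusted p = 4.37e-08). Gpt, the alanine aminotransferase, measured 8.09 to 9.28 in SD (median 8.52) and 7.06 to 7.88 in vehicle dTGR (median 7.62), a difference of -1.03 ± 0.16 (adjusted p = 1.69e-05). Mthfd2, the mitochondrial folate enzyme of growing cells, moved the other way, from 7.44 to 8.34 in SD (median 8.08) to 8.17 to 10.42 in vehicle dTGR (median 9.76), a difference of 1.54 ± 0.23 (adjusted p = 6.37e-06). Groups did not overlap for Gamt and Gpt. Parp1, which consumes NAD on damaged DNA, was lower, at -0.61 ± 0.08 (adjusted p = 7.42e-07).

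Genes of iron, haem and haemoglobin were divided, with 9 of 40 higher and 10 lower. The haemoglobin genes Hba-a3, Hbb-b1 and Hba-a1, which mark red cells, were lower, at -2.19 ± 0.29, -1.22 ± 0.29 and -1.04 ± 0.26, and the groups of Hba-a3 did not overlap. Copies of the alpha globin gene may not be told apart by probes, and the part of red cell content in the other differences was not tested. Hamp, which encodes hepcidin, the peptide that closes the iron exporter ferroportin, measured 8.78 to 10.37 in SD (median 9.58) and 9.72 to 13.35 in vehicle dTGR (median 11.21), a difference of 1.74 ± 0.37 (adjusted p = 0.000737). Steap2, a metalloreductase, measured 8.26 to 9.49 in SD (median 8.68) and 9.81 to 10.78 in vehicle dTGR (median 10.06), a difference of 1.37 ± 0.15 (adjusted p = 3.1e-08), with no overlap. The exporter gene Slc40a1 was higher by 0.64 ± 0.09 (adjusted p = 2.15e-06), while Gypc, a red cell membrane glycoprotein, was lower, at -0.86 ± 0.11 (adjusted p = 6.18e-07). Genes of glutathione and thioredoxin metabolism were higher in 13 and lower in 9 of 55, with Gclc, the limiting enzyme of glutathione synthesis, at 0.65 ± 0.09 and the transferase Gstm7 at -0.71 ± 0.10. Adh1c, an alcohol dehydrogenase, was lower, at -1.51 ± 0.20 (adjusted p = 7.87e-07), without overlap.

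Among genes of protein synthesis and turnover, cytosolic ribosomal proteins had 6 of 115 measured members higher and 1 lower (10 and 1 without replicates 6 and 7). The proteasome had 4 of 40 higher and 2 lower. Called in either direction were 6.1% and 15% of these lists, below the 23.8% of all genes. Ribosome biogenesis and Myc-related nucleolar genes were higher in 12 and lower in none of 43, with a median of 0.16 (14 higher and 1 lower without replicates 6 and 7). Many of the genes are targets of Myc, and the 12 include the regulators Myc and Mxd1 themselves. By array the median of the list was 0.57 in vehicle replicate 5 and 0.01 to 0.21 in the other vehicle arrays, against -0.06 to 0.05 in SD. The nucleolar genes Gnl3 and Ddx21 were higher by 0.53 ± 0.11 and 0.42 ± 0.09. Genes of the integrated stress response and of endoplasmic reticulum stress separated into higher and lower members, 12 and 8 of 44. Ppp1r15a, which restores translation after stress, measured 10.31 to 10.95 in SD (median 10.68) and 11.17 to 13.08 in vehicle dTGR (median 11.50), a difference of 1.07 ± 0.17 (adjusted p = 2.28e-05). Hyou1, a chaperone of the endoplasmic reticulum, measured 11.93 to 12.36 in SD (median 12.13) and 11.04 to 11.82 in vehicle dTGR (median 11.47), a difference of -0.71 ± 0.09 (adjusted p = 9.51e-07). The chaperone Hspa5, the list member Cdnf and the secreted Stc2 were also lower, at -0.34 ± 0.07, -0.72 ± 0.11 and -1.19 ± 0.14. The stress-induced Nupr1 was higher by 1.41 ± 0.22. Ddit3 and Trib3, classical markers of that stress, were not called, at 0.06 ± 0.13 and 0.48 ± 0.27 (adjusted p = 0.803 and 0.223).

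Heat shock proteins and cochaperones were higher in 14 and lower in 10 of 84 measured genes, against 12.1% and 11.7% of all genes. Fkbp4, a cochaperone that carries steroid receptors to the nucleus, measured 12.77 to 13.11 in SD (median 12.95) and 11.44 to 12.39 in vehicle dTGR (median 12.02), a difference of -1.02 ± 0.13 (adjusted p = 6.23e-07). Hspb1, the small heat shock protein Hsp27, measured 13.06 to 13.65 in SD (median 13.50) and 13.57 to 15.15 in vehicle dTGR (median 13.90), a difference of 0.66 ± 0.14 (adjusted p = 0.000816). Fkbp4 had no overlap, and Hspb1 overlapped at the edge. The promoters of these 2 genes are shown because both hold a heat shock element while the genes moved in opposite directions. The element was searched as GAANNTTC, which reads the same on both strands, in RefSeq windows of assembly GRCr8 that run from 250 bases before to 50 bases after each gene's start. Of 27457 windows, 9341 matched a tested gene. The element lay in 15 of 70 windows of measured genes of the list (21.4%), against 6.35% of all tested genes and 8.34% of all windows. By call it lay in 3 of 11 windows of higher genes and 3 of 9 of lower genes. Capitals mark the matches.
Fkbp4 (GRCr8, chr4:163397869-163398168, minus strand): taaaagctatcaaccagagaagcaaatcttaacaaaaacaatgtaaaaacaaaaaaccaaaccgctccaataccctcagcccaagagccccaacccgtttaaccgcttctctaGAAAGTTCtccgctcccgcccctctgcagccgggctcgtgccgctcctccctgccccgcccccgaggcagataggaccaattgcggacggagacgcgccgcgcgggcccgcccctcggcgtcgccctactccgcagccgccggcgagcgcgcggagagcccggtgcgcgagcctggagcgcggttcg
Hspb1 (GRCr8, chr12:26432252-26432551, minus strand): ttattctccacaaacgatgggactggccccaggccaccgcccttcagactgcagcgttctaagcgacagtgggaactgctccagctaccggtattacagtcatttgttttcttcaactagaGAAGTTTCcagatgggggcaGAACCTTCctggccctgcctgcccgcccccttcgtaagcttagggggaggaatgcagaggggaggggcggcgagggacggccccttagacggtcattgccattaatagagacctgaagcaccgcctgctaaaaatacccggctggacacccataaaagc

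In the stress response list, the amino acid response element TGATGNAA, searched on both strands, lay in 8 of 37 windows (21.6%), against 2.36% of all tested genes, and in 2 of 10 windows of higher genes and 1 of 7 of lower genes.

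In the extracellular matrix 4 of 29 measured collagen genes were higher and 1 lower (4 and 2 without replicates 6 and 7), a share below the 23.8% of all genes. Of 21 collagen processing and cross-linking genes 6 were higher and 2 lower, and of 26 matricellular genes 10 were higher and 3 lower. Col8a1, a short-chain collagen of vessels and remodelling tissue, measured 7.93 to 9.24 in SD (median 8.37) and 9.37 to 10.63 in vehicle dTGR (median 10.27), a difference of 1.71 ± 0.21 (adjusted p = 4.55e-07). The basement membrane chain Col4a1 was higher by 0.48 ± 0.09 (adjusted p = 0.000149), and Col6a6 was lower, at -1.80 ± 0.28 (adjusted p = 1.36e-05). Lox, the oxidase that cross-links collagen and elastin, measured 9.70 to 10.56 in SD (median 10.12) and 10.78 to 12.04 in vehicle dTGR (median 11.20), a difference of 1.18 ± 0.19 (adjusted p = 1.83e-05). Groups did not overlap for Col8a1, Col4a1 and Lox. Metalloproteinases, ADAMTS enzymes and their inhibitors were higher in 13 and lower in 3 of 38. Adam15 was higher by 0.97 ± 0.09 (adjusted p = 2.7e-09) and Mmp14, a membrane-bound collagenase, by 0.88 ± 0.16 (adjusted p = 8.63e-05), both without overlap, whereas the membrane-bound Mmp15 was lower, at -0.99 ± 0.17 (adjusted p = 6.05e-05).

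Adamts1, a protease of proteoglycans, measured 10.90 to 11.77 in SD (median 11.14) and 11.35 to 15.17 in vehicle dTGR (median 12.84), a difference of 1.58 ± 0.30 (adjusted p = 0.000169), and replicate 1 of the vehicle group, at 15.17, stood above the others. Fgl2, which encodes a fibrinogen-like protein with prothrombinase activity, measured 9.54 to 10.28 in SD (median 10.05) and 10.34 to 12.47 in vehicle dTGR (median 11.99), a difference of 1.57 ± 0.23 (adjusted p = 4.3e-06), with no overlap. Proteoglycan genes and enzymes of hyaluronan were higher in 10 and lower in 2 of 30, among them the hyaluronan synthase Has1 at 1.41 ± 0.34 and the syndecan Sdc4 at 1.24 ± 0.27, while fibromodulin, Fmod, was lower, at -0.94 ± 0.22. The laminin chain Lama5 was higher by 1.16 ± 0.19 (adjusted p = 1.98e-05).

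Genes induced by interferon were lower as a group. Of 79 listed genes 57 were measured, 23 were lower and 6 higher, with a median of -0.31. Irf7, the factor that amplifies type I interferon, measured 9.56 to 11.49 in SD (median 10.02) and 8.61 to 9.76 in vehicle dTGR (median 9.10), a difference of -1.14 ± 0.23 (adjusted p = 0.000397). Gbp5, a guanylate-binding protein of the host defence, measured 10.04 to 10.83 in SD (median 10.34) and 8.48 to 10.38 in vehicle dTGR (median 9.60), a difference of -0.83 ± 0.18 (adjusted p = 0.000915). Oasl2, of the oligoadenylate synthetase family, measured 9.52 to 10.73 in SD (median 10.44) and 8.60 to 10.20 in vehicle dTGR (median 9.34), a difference of -0.96 ± 0.19 (adjusted p = 0.000306). In these genes the groups overlapped although the vehicle median was lower in each. Oas2 had a vehicle mean below the filter level and was at least 2.26-fold lower there (adjusted p = 0.00122). Further lower members were Rtp4 (-1.20 ± 0.25), Ifi47 (-0.89 ± 0.17), the deISGylase Usp18 (-0.82 ± 0.18) and the peptide transporter Tap1 (-0.58 ± 0.15). Isg15, the modifier that Usp18 removes, was not called at -0.47 ± 0.24 (adjusted p = 0.166).

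The 6 higher members were Gbp6, Ifitm1, Gbp1, Ifitm3, Irf8 and Irf2, of which Gbp1 and Irf8 lost their call when some single arrays were left out. Gbp6 had an SD mean below the filter level and was at least 6.1-fold higher in vehicle dTGR (adjusted p = 6.34e-09), with no overlap. Guanylate-binding and oligoadenylate synthetase genes have close copies, which probes may not tell apart. The membrane proteins Ifitm1 and Ifitm3, which block virus entry, were higher by 1.16 ± 0.23 and 0.49 ± 0.10. By array the median of the list ran from -0.60 to -0.01 in vehicle dTGR and from -0.32 to 0.26 in SD, and 4 vehicle arrays were below all SD arrays. Replicates 6 and 7 lay at -0.04 and -0.01. Without them 27 members were lower and 7 higher.

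The promoters of Irf7 and Gbp5, which were lower, and of Ifitm3, which was higher, are shown because all 3 hold the interferon-stimulated response element. It was searched on both strands in the windows described above. It lay in 24 of 42 windows of measured members (57.1%), against 3.17% of all tested genes and 3.77% of all windows. By call it lay in 11 of 17 windows of lower genes and 1 of 4 of higher genes. Capitals mark the match.
Irf7 (GRCr8, chr1:205799974-205800273, minus strand): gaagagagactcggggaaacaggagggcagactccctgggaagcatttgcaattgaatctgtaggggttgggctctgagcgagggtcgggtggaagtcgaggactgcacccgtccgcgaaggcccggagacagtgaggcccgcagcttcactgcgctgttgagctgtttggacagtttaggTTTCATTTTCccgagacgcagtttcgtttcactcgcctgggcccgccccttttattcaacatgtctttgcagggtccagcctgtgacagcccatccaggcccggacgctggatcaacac
Gbp5 (GRCr8, chr2:233910749-233911048, plus strand): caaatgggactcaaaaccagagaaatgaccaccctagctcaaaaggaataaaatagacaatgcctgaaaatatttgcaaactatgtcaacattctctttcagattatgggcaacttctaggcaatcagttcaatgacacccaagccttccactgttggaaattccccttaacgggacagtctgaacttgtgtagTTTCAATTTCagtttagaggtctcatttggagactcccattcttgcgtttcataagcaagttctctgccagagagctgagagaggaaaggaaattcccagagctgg
Ifitm3 (GRCr8, chr1:205541709-205542008, minus strand): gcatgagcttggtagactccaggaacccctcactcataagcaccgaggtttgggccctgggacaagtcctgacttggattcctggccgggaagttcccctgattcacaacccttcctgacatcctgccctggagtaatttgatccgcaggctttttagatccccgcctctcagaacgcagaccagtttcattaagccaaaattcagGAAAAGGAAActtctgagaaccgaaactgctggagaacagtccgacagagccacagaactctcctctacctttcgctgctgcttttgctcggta

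Like the interferon genes, markers of T, natural killer and B cells were lower more often than higher. Of 39 measured genes (52 listed) 12 were lower and none was higher (12 and 1 without replicates 6 and 7), with a median of -0.32, and in 7 of 8 vehicle arrays the median of the list (-0.53 to -0.07) was below all SD arrays (-0.10 to 0.23). Klrk1, which encodes the activating receptor NKG2D, measured 7.83 to 8.92 in SD (median 8.59) and 6.13 to 7.96 in vehicle dTGR (median 7.46), a difference of -1.06 ± 0.22 (adjusted p = 0.00047). Lck, the kinase of T cell receptor signalling, measured 7.78 to 8.86 in SD (median 8.38) and 7.16 to 8.31 in vehicle dTGR (median 7.49), a difference of -0.74 ± 0.17 (adjusted p = 0.00137). The granule proteins Nkg7 and Prf1 (perforin), the chemokine genes Xcl1 and Ccl5 and the T cell factor Tcf7 were lower, at -0.74, -0.68, -0.84, -0.62 and -0.65. Prf1 (adjusted p = 0.0342) lost its call when some single arrays were left out. Of the genes that define T cells, Cd3g was lower (-0.78), and Cd3d was dim in both groups, at 4.95 to 6.53 in SD and 4.85 to 6.64 in vehicle dTGR, and differed by -0.04 ± 0.27 (adjusted p = 0.949). Cd8a, the coreceptor of cytotoxic T cells, differed by -0.31 ± 0.22 (adjusted p = 0.346). The part of lymphocyte content in the interferon-induced difference was not tested.

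**Figure D4:**
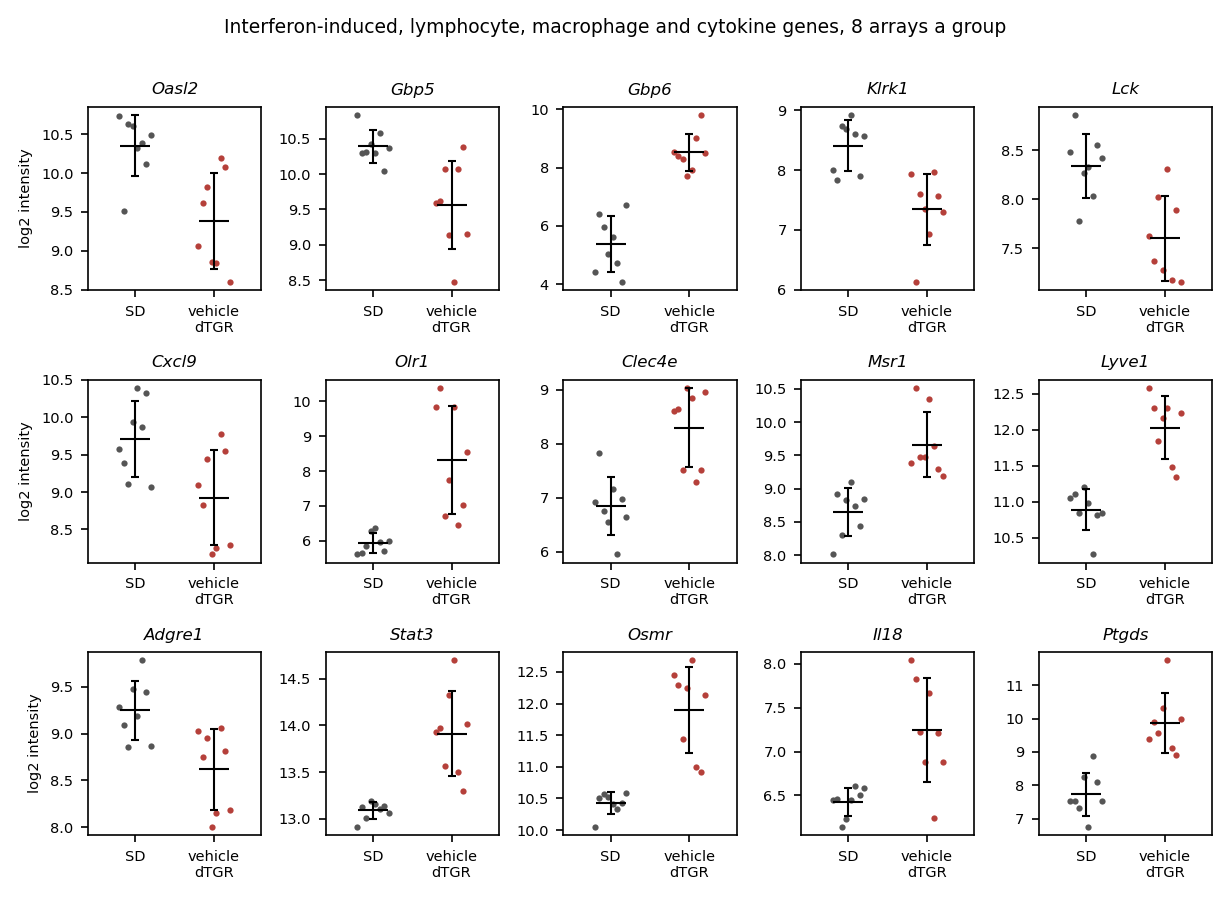
Log2 intensity of 15 immune genes in each array, SD in grey and vehicle dTGR in red, with the mean and standard deviation of 8 arrays. Oasl2, Gbp5, Klrk1, Lck, Cxcl9 and Adgre1 were lower in vehicle dTGR with overlapping groups, and Gbp6, Olr1, Msr1, Lyve1, Stat3, Osmr and Ptgds were higher with none.

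Macrophage genes were more often higher. Of 36 measured genes of recruited and lipid-associated macrophages 13 were higher and 4 lower, and of 16 resident macrophage genes 5 were higher and 2 lower (7 and 3 without replicates 6 and 7). Olr1, a receptor for oxidised LDL, measured 5.61 to 6.37 in SD (median 5.90) and 6.46 to 10.39 in vehicle dTGR (median 8.14), a difference of 2.39 ± 0.46 (adjusted p = 0.000232). Lyve1, the hyaluronan receptor of lymphatic vessels and of perivascular macrophages, measured 10.28 to 11.21 in SD (median 10.92) and 11.35 to 12.58 in vehicle dTGR (median 12.20), a difference of 1.14 ± 0.14 (adjusted p = 3.04e-07). Neither overlapped, and the scavenger receptor Msr1 (1.01 ± 0.19) did not either. Clec4e, a receptor for glycolipids and dying cells, was higher by 1.45 ± 0.25 (adjusted p = 6.83e-05). Adgre1, which encodes the macrophage antigen F4/80, was lower, at -0.63 ± 0.18 (adjusted p = 0.0095), and the monocyte genes Ly6c and Plac8 were lower, at -0.81 ± 0.15 each, whereas the pan-macrophage gene Cd68 was higher by 0.53 ± 0.16.

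Signals that act on these cells differed one by one. Of 44 measured chemokines and receptors 9 were higher and 8 lower, and without replicates 6 and 7 the counts were 8 and 12, with the median moving from -0.08 to -0.18. The B cell homing receptor Cxcr5 measured 6.46 to 7.36 in SD (median 7.06) and 6.98 to 9.70 in vehicle dTGR (median 8.80), a difference of 1.56 ± 0.30 (adjusted p = 0.000222). The neutrophil chemokine Cxcl1 was higher by 1.11 ± 0.28 and the interferon-induced Cxcl9 was lower, at -0.78 ± 0.22 (adjusted p = 0.00328 and 0.00859). In the Toll-like receptor list (8 of 35 higher and 2 lower, or 10 and 3 without replicates 6 and 7) the adaptor Myd88 was higher by 0.94 ± 0.14 and the kinase Irak2 by 1.02 ± 0.17, both without overlap. Genes of prostaglandins and leukotrienes were higher in 10 and lower in 3 of 29 (10 higher and 5 lower without replicates 6 and 7). Ptgds, which makes prostaglandin D2, measured 6.77 to 8.87 in SD (median 7.54) and 8.90 to 11.74 in vehicle dTGR (median 9.73), a difference of 2.13 ± 0.28 (adjusted p = 1.08e-06), with no overlap. Pla2g4a, which frees the arachidonic acid, was higher by 1.00 ± 0.19, and the constitutive cyclooxygenase Ptgs1 by 0.55 ± 0.12.

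Genes of the rat major histocompatibility complex, named RT1, were listed together with other histocompatibility genes. Members of this list moved in both directions, with 6 of 34 measured higher and 9 lower. RT1-CE4, a class I gene, measured 9.13 to 10.41 in SD (median 9.72) and 6.98 to 9.47 in vehicle dTGR (median 8.27), a difference of -1.48 ± 0.23 (adjusted p = 1.23e-05). RT1-CE10 had an SD mean below the filter level and was at least 2.12-fold higher (adjusted p = 0.000103). Cd1d1, which presents lipids to T cells, measured 10.88 to 11.25 in SD (median 11.01) and 9.42 to 10.31 in vehicle dTGR (median 9.95), a difference of -1.13 ± 0.11 (adjusted p = 6.34e-09), with no overlap. RT1 class I genes are near-identical and polymorphic, so a probe may read several of them or bind one allele better, and which copy each value belongs to is uncertain.

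Genes of mitosis and cytokinesis were higher in 16 and lower in 1 of 57 measured members, with a median of 0.41. Plk1, a kinase of mitotic entry, measured 6.55 to 8.08 in SD (median 7.16) and 7.38 to 8.55 in vehicle dTGR (median 8.09), a difference of 0.82 ± 0.20 (adjusted p = 0.00211). Foxm1, the transcription factor of mitotic genes, measured 7.45 to 8.13 in SD (median 7.70) and 7.92 to 8.84 in vehicle dTGR (median 8.53), a difference of 0.69 ± 0.16 (adjusted p = 0.00122). All higher members overlapped between groups, and Ncapg2, a condensin subunit, was the lower one at -0.65 ± 0.15 without overlap. By array the median of the list was highest in replicate 6, at 0.72, and lowest in replicate 5, at 0.09, and 7 vehicle arrays were above all SD arrays. Without replicates 6 and 7, 10 members were higher and 1 lower. Genes of DNA replication were called higher in 4 and lower in 1 of 38, and in 2 each without replicates 6 and 7. Targets of p53 and cell cycle inhibitors were higher in 10 and lower in 1 of 25, and all 8 vehicle arrays (0.14 to 0.50) were above the SD arrays (-0.08 to 0.05) by the median of the list. Gadd45g, a stress-induced growth arrest gene, measured 9.64 to 10.36 in SD (median 9.90) and 10.98 to 13.70 in vehicle dTGR (median 11.21), a difference of 1.55 ± 0.23 (adjusted p = 8.99e-06), with no overlap. Pmaip1, the death promoter NOXA, was higher by 1.02 ± 0.21 and Perp, a p53 target of cell junctions, was lower, at -0.65 ± 0.13.

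The promoters of Plk1 and Prc1, a bundler of spindle microtubules that was higher by 0.96 ± 0.21, are shown for the elements of cell cycle genes, the CCAAT box (CCAAT) and the cell cycle homology region (TTTGAA). Both were searched on both strands in the same windows. The CCAAT box lay in 32 of 48 windows of measured mitosis genes (66.7%) against 37.7% of all tested genes. The homology region lay in 28 of 48 (58.3%) against 13.6% of all tested genes and 18.1% of all windows, and in 6 of 13 windows of higher genes. Capitals mark matches of either.
Plk1 (GRCr8, chr1:186147408-186147707, plus strand): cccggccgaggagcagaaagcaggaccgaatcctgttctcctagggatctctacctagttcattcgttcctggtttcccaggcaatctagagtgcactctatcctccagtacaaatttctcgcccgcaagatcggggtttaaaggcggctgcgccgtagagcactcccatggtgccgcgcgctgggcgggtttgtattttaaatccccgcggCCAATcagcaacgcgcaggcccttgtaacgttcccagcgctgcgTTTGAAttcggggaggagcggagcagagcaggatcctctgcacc
Prc1 (GRCr8, chr1:143659231-143659530, plus strand): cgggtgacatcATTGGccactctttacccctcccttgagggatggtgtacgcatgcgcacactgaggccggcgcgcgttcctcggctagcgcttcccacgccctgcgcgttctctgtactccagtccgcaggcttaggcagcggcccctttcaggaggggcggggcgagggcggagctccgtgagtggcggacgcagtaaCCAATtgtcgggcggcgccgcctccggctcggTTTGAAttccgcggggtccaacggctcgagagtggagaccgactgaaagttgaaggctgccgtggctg

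For other elements searched on both strands, M-CAT (CATTCC) lay in 11 of 37 windows of sarcomere genes (29.7%) against 11.7% of all tested genes, the estrogen-related receptor element TCAAGGTCA in none of 38 windows of fatty acid oxidation genes against 0.278%, and AP-1 (TGANTCA) in 1 of 21 windows of immediate early genes against 5.85%. These are matches of letters in 1 short window and describe no binding.

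Markers of the other cell types of the ventricle moved as follows. Endothelial markers were higher in 9 and lower in none of 25, with a median of 0.21 (11 higher and 1 lower without replicates 6 and 7). The adhesion receptor Selp, which recruits leukocytes, measured 5.26 to 6.59 in SD (median 5.63) and 5.84 to 7.88 in vehicle dTGR (median 7.35), a difference of 1.28 ± 0.31 (adjusted p = 0.00199). The endothelial factor Erg was higher by 0.36 ± 0.07 (adjusted p = 0.000108), while Cdh5, Tek and Tie1, which define endothelium, were each within 0.04 of no difference and were not called. Smooth muscle and pericyte markers were higher in 6 and lower in 2 of 13 (6 and 1 without replicates 6 and 7), fibroblast markers higher in 4 and lower in 1 of 18, and markers of adipocytes higher in 1 and lower in none of 8. Atrial markers were lower in 4 and higher in 1 of 8 (4 and 2 without replicates 6 and 7), and the median of the list was below all SD arrays (-0.31 to 0.38) in 6 vehicle arrays. The lower members were Kcnj3, the atrial light chain Myl7 (-1.77 ± 0.36), Stard10 (-0.58 ± 0.10) and Dkk3 (-0.54 ± 0.11), and the higher one was the natriuretic peptide gene Nppa. Mesothelial markers, genes of the epicardial surface layer, were lower in 5 and higher in 1 of 12, with Upk1b, a uroplakin, at 6.70 to 8.85 in SD (median 7.76) and 4.75 to 6.82 in vehicle dTGR (median 6.19), a difference of -1.74 ± 0.34 (adjusted p = 0.000218). Schwann cell and neuronal markers were lower in 4 and higher in none of 15 (4 and 1 without replicates 6 and 7). Mal, a myelin proteolipid, measured 6.98 to 8.01 in SD (median 7.45) and 5.06 to 6.66 in vehicle dTGR (median 6.19), a difference of -1.50 ± 0.24 (adjusted p = 1.53e-05), with no overlap, and the neurotrophic receptor Gfra3 was lower, at -1.07 ± 0.25 (adjusted p = 0.00161).

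Outside the lists lay 8399 of the tested genes, and several of the largest differences were among them. Tceal7, of the transcription elongation factor A-like family, measured 5.92 to 7.71 in SD (median 6.98) and 9.27 to 10.68 in vehicle dTGR (median 10.12), a difference of 3.13 ± 0.27 (adjusted p = 5.29e-10). Stx11, a syntaxin of granule release, measured 9.39 to 9.76 in SD (median 9.56) and 10.60 to 11.70 in vehicle dTGR (median 11.34), a difference of 1.73 ± 0.13 (adjusted p = 2.99e-11). Prg4, which encodes the lubricant lubricin, measured 8.13 to 9.24 in SD (median 8.78) and 9.67 to 12.88 in vehicle dTGR (median 10.86), a difference of 2.22 ± 0.30 (adjusted p = 1.37e-06). None of the 3 overlapped between groups. Trh, which encodes thyrotropin-releasing hormone, had an SD mean below the filter level and was at least 5.21-fold higher in vehicle dTGR (adjusted p = 0.000127), and the cytosolic glucosidase Gba3 was at least 2.65-fold higher in the same way (adjusted p = 2.38e-07). Ptprn, a protein of dense-core secretory vesicles, was higher by 1.86 ± 0.21, and Akip1, which binds protein kinase A, by 1.89 ± 0.20 (adjusted p = 7.17e-08 and 3.41e-08), both without overlap.

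Among lower genes outside the lists, Fcer2, which encodes the low-affinity IgE receptor CD23, measured 9.80 to 10.51 in SD (median 10.14) and 5.69 to 9.91 in vehicle dTGR (median 8.55), a difference of -2.08 ± 0.40 (adjusted p = 0.000193), with vehicle arrays spread 6.93 times as widely as SD arrays. Dynap measured 11.11 to 12.12 in SD (median 11.33) and 8.45 to 10.74 in vehicle dTGR (median 9.44), a difference of -1.95 ± 0.23 (adjusted p = 2.28e-07). Gabrb2, a subunit of the GABA-A receptor, measured 9.65 to 10.83 in SD (median 9.92) and 7.53 to 9.88 in vehicle dTGR (median 8.06), a difference of -1.89 ± 0.28 (adjusted p = 5.32e-06). Dynap was lower in every vehicle array than in every SD array. Piwil2, of the PIWI family that binds small RNAs in germ cells, was lower, at -1.46 ± 0.16 and Pllp, a membrane proteolipid, by -1.49 ± 0.21, also without overlap.

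Genes whose groups did not overlap were also set in genome order, for 11458 genes placed by RefSeq in GRCr8. In all, 3 runs of 3 neighbouring tested genes had no overlap at any member. On chromosome 10 the run of Abca5, Map2k6 and Kcnj2 held a higher transporter gene (1.71 ± 0.21) beside the lower p38 kinase activator Map2k6 (-1.39 ± 0.16) and the lower Kcnj2. On chromosome 19 Trir, Get3 and Junb were all higher, and on chromosome 5 Ctnnal1, Tmem245 and Ptpn3 were all lower (-0.93 ± 0.10, -0.33 ± 0.07 and -0.82 ± 0.10). In windows of 20 neighbouring genes, the most crowded was on chromosome 1 between Rpl27a and Rras2, where 6 genes had no overlap (Akip1, Ipo7, Adm, Lyve1, Parva and Rras2) and 12 were called higher and 2 lower. Of these, the import receptor gene Ipo7 differed by 0.45 ± 0.06, the vasodilator peptide gene Adm by 0.56 ± 0.10 and Rras2 by 0.46 ± 0.08. Windows on chromosomes 2, 5 and 20 held 5 such genes each, the one on chromosome 20 within the RT1 region. Over all placed genes the share without overlap was 4.08%.

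The vehicle arrays were more variable than the SD arrays. The vehicle standard deviation was the larger in 61.9% of genes, with a median of 0.30 against 0.25. It was over 3 times the SD value in 446 genes, and the reverse held in 57. The ratio had a median of 1.32 in genes called higher, 1.41 in genes called lower and 1.10 in genes not called. Ctsl, which encodes cathepsin L, was among the most unequal, at 12.67 to 12.80 in SD (median 12.71) and 13.12 to 14.36 in vehicle dTGR (median 13.68), a difference of 1.02 ± 0.11 (adjusted p = 9.78e-08). Its groups were still fully apart. Angptl2, a secreted angiopoietin-like protein, measured 12.89 to 13.24 in SD (median 13.04) and 10.53 to 13.10 in vehicle dTGR (median 12.27), a difference of -1.03 ± 0.27 (adjusted p = 0.00407), and some of its vehicle arrays lay within the SD range.

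**Figure D5:**
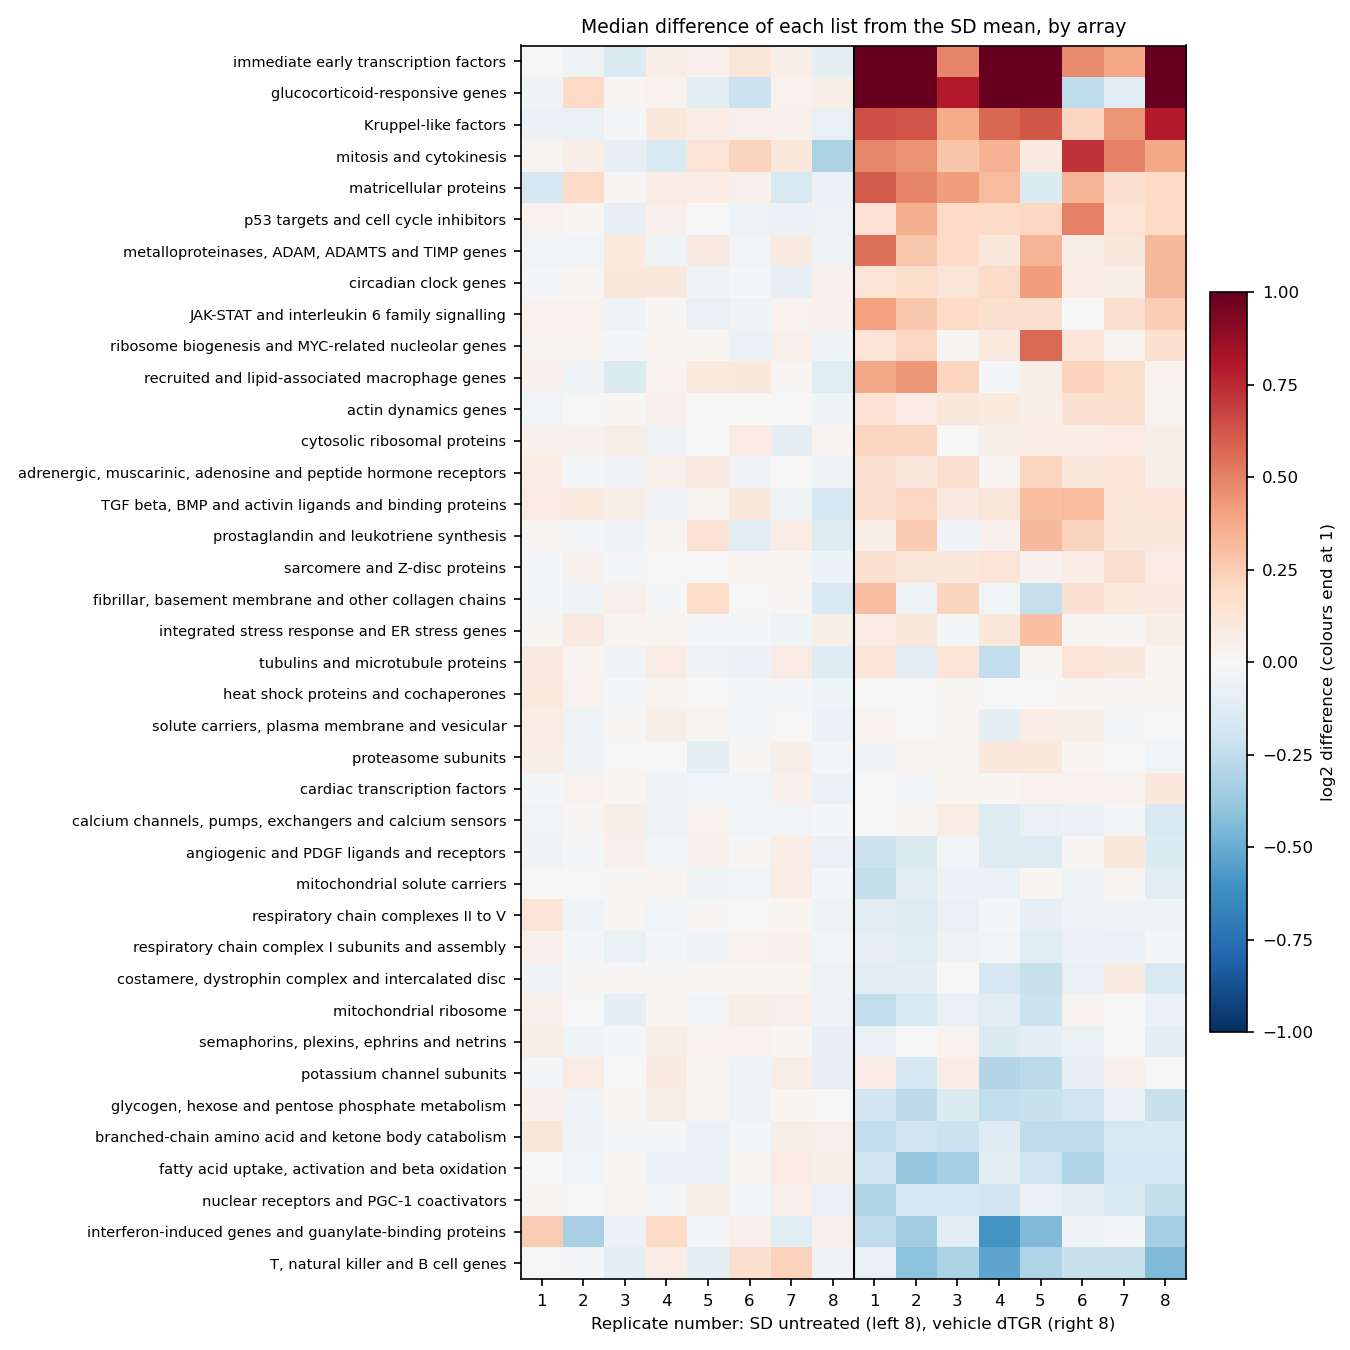
Median difference of the members of 39 gene lists from the SD mean (log2, colour) in each of the 8 SD arrays (left) and 8 vehicle dTGR arrays (right), with the lists in the order of their median difference. Immediate early genes are raised in all 8 vehicle arrays (0.39 to 2.58), glucocorticoid-responsive genes in 6, with replicates 6 and 7 at -0.25 and -0.11, and genes of branched-chain amino acid catabolism are lowered in all 8 (-0.25 to -0.13).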

How the data were processed

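Left ventricular RNA was measured on whole-transcript arrays (1 array per sample). The authors deposited 1 table of linear intensity values that were background-corrected, normalised and summarised per probe set by RMA, per the submitters' processing notes; no version is stated there. Raw scans were not used. Groups came from the labels, which name no batch and do not say whether samples were processed together. Intensities were turned to log2, with no pseudocount. Probes with a mean below the 30th percentile were left out, and the brightest probe was kept for each single gene symbol (174 genes had more than 1 probe). Differences were fitted with limma 3.58.1 in R 4.3.3 over all 28 arrays in 3 groups, with an intensity trend and p-values adjusted over 11493 genes. The fit was tested on simulated data. P-values rest on 1 estimate of spread per gene, shared by all 3 groups. The vehicle standard deviation was larger than that of SD in 61.9% of genes. The number of arrays limits the precision.

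The comparison, the gene lists and the tests were chosen with earlier results of these data known. A few list entries were corrected after their matches were seen. In each list up to 6 called members with the largest difference whose call held in every leave-one-out fit could be named, and every called member of lists with at most 8 measured. Outside the lists this was 15 genes in each direction, and in addition the 10 genes with the most unequal spread and the genes of neighbour runs. Called members named beyond that rule were chosen after their values were seen. Promoters came from RefSeq (GRCr8). Alternatives were the filter, the normalization, the probe rule, the variance model, a pseudocount of 16, the arrays in the fit and leaving out arrays.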

Additional observations from a re-analysis of the deposited data

Results flagged for a closer look

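Single arrays that stood apart from the other 7 of their group were sought among 263 genes and 39 lists with Dixon's criterion (the gap to the nearest other array over the range), which chance meets in about 1 in 20 groups. Of 526 gene groups 31 (5.89%) met it, as did 5 of 78 list groups. Vehicle replicate 1 was the array in 13 of the 36 cases and replicate 5 in 9. Replicates 6 and 7, which lay nearest to SD, were the array in 1 case.

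Replicate 1 of the vehicle group was the highest for early response genes: the median of the immediate early list was 2.58 there against at most 1.19 in the others, and it measured 11.80 for Arc, 14.64 for Atf3, 15.20 for Egr1, 10.89 for Fosb, 14.54 for Jun, 13.84 for Klf6 and 13.77 for Nr4a1. It was also the highest for Gadd45g (13.70), Il6 (9.93), Igfbp3 (11.29), Tnfrsf12a (13.24) and Col4a1 (12.07). Replicate 5 was the lowest for Acss1 (13.46), Kcnh2 (9.16), Map2k6 (6.68), Myh7b (8.16), Ppp1r3a (9.86) and Usp18 (8.26), and the highest for Steap2 (10.78). It was also the highest for the lists of the integrated stress response (0.30) and of ribosome biogenesis (0.57). Replicate 7 was the highest for Gabrb2 (9.88), within the SD range. Replicate 8 was the highest for cardiac transcription factors (0.10).

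Among SD arrays, replicate 1 was the highest for Adcy5 (13.22), Parp1 (12.93) and the list of respiratory chain complexes II to V (0.13), and the lowest for Osmr (10.05). Replicate 2 was the highest for Ifitm1 (9.28) and the lowest for Irak2 (7.61), and replicate 4 the lowest for Akr1b8 (5.11) and Irs2 (8.77). Replicate 5 was the lowest for Dbt (13.89) and Ptpn3 (12.48), replicate 6 for Lyve1 (10.28) and replicate 8 for Adra1d (8.09).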

How the results depend on the processing

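Under the alternatives that kept all 16 arrays, 1112 to 1416 genes were called higher and 1109 to 1445 lower, and the lowest counts came from a fit on the 2 groups alone. Leaving out 1 array at a time gave 1253 to 1468 higher and 1214 to 1440 lower, with 520 to 647 and 407 to 525 at 1.5-fold or more. The number of genes whose groups did not overlap ran from 233 to 304 higher and 254 to 329 lower, and without vehicle replicates 6 and 7 it was 495 higher and 455 lower, where fewer arrays had to be apart. No called difference of a named gene changed sign. Among the lists, several small medians changed sign without replicates 6 and 7. Examples were 0.02 to -0.02 for solute carriers, 0.07 to -0.02 for collagen processing and 0.03 to -0.05 for laminins. Cardiac transcription factors moved from 0.001 to -0.008. Of 588 named genes 557 kept their side of the threshold under every alternative in which they were tested; the filter at the median tested 568 of them. Among those in the text, the calls of Prf1, Irf8, Gbp1, Nr1h3, Pprc1, Nr4a2 and Ppargc1a were lost under at least 1 alternative, and Zbtb16, Per1, Arc, Cd36, Gata4, Isg15 and Adrb1 were called under at least 1; the cause was not tested. No paired analysis was possible because the labels give the animals no numbers shared between groups. Calls were rarer among dim genes, for which the cause was not tested, and no batch is named in the labels.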
